A study of Aedes aegypti with 8 samples.

Results

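The genes described here are the fatty acid synthases and the lipid carriers of the midgut of female Aedes aegypti, the yellow fever mosquito. They were chosen by identifier, without use of any measured value: 6 fatty acid synthases (AAEL001194, known as FAS1, AAEL008160, AAEL002204, AAEL002237, AAEL002228 and AAEL002200), the sterol carrier protein 2 AAEL012697 and the lipophorin AAEL009955. Of these 8 genes, 5 were read from the count table of 19712 identifiers, and AAEL002204, AAEL002200 and AAEL012697 were not analysed here. Counts of AAEL001194, AAEL008160 and AAEL009955, or 3 of the 5, were high enough to enter the test, as were those of 11095 identifiers in all.

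The question was how midgut transcripts respond to heme, the iron-containing group that hemoglobin releases during blood digestion. Midguts of females aged 3 to 5 days were dissected and kept for 35 h at 28 °C in Schneider's Drosophila medium with 0 µM or 10 µM heme. Both groups received penicillin-streptomycin and L-glutamine in the medium, which was renewed during the incubation, and neither received fetal bovine serum, a source of lipid. Each group had 4 biological replicates made from pooled midguts, and polyA RNA was sequenced, for 8 libraries with total counts of 46027977 to 56947544. The tissue was an explant in both groups, cut off from the hemolymph that receives its lipids in the animal.

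Fatty acid synthase is a large multifunctional enzyme that builds palmitate from malonyl-CoA and acetyl-CoA with NADPH as the reductant. In the mosquito midgut, lipids absorbed or made after a blood meal are stored in droplets and exported to the hemolymph. Lipophorin is the lipoprotein of insect hemolymph that takes up these lipids and delivers them to the ovaries and other tissues, and in insects it is made mainly by the fat body. Insects cannot make sterols and must absorb cholesterol from food, and sterol carrier protein 2 moves cholesterol and fatty acids within cells.

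Nearly all synthase counts fell on AAEL001194, and no member passed the test for a difference with heme. FAS1 had 137, 232, 305 and 209 CPM (counts relative to the library total as scaled by TMM, edgeR's correction for library composition) in 0 µM heme replicates 1 to 4. In the 10 µM heme replicates it had 153, 216, 247 and 335 CPM. The groups overlapped throughout, and the lowest library of each was its replicate 1. The raw counts behind these values were 6196, 13352, 16587 and 11880 at 0 µM and 6966, 12114, 11973 and 20425 at 10 µM heme.

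The mean of AAEL001194 was 221 ± 69.2 CPM (SD, n = 4) without heme and 238 ± 75.8 CPM (SD, n = 4) with it. Its log2 fold change, 10 µM minus 0 µM, was 0.11 ± 0.33 (SE), with an adjusted p of 0.979 in edgeR's exact test with Benjamini-Hochberg adjustment over all genes tested. The difference was smaller than the spread between replicates. Limma-voom with quality weights, a separate fit, gave a log2 fold change of 0.05. Its 95% interval ran from -0.40 to 0.51 on the log2 scale, or from 0.757 to 1.42 times the level without heme. This interval was not computed from the SE above, which treats the libraries alike. With 4 libraries a group, these data do not tell apart the changes within these bounds, no change among them. In the exact test the sign rested on single libraries: the log2 fold change was -0.06 without 0 µM heme replicate 1 and -0.10 without 10 µM heme replicate 4.

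**Figure D1:**
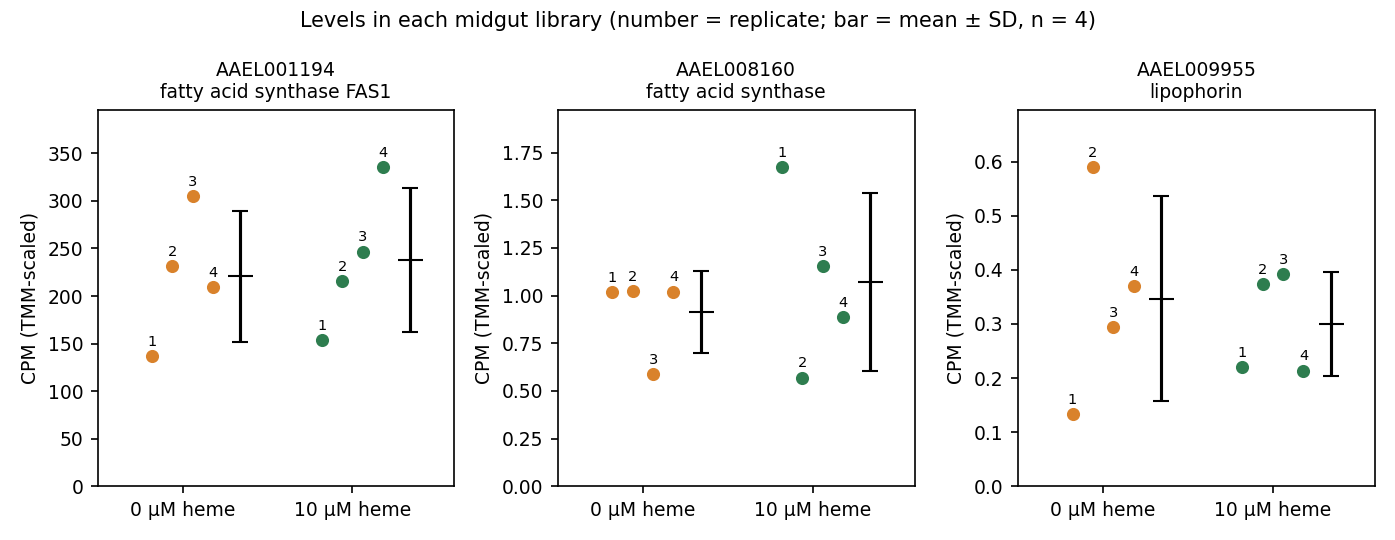
Level of each tested member in each library, in CPM scaled by TMM (vertical axes start at 0), for 0 µM and 10 µM heme. Points are the 4 replicates with their numbers, and bars give the mean and SD. The groups overlap for AAEL001194, AAEL008160 and AAEL009955.

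A second synthase, AAEL008160, was counted at a low level. It had 46, 59, 32 and 58 counts at 0 µM and 76, 32, 56 and 54 counts at 10 µM heme. The means were 0.912 ± 0.216 and 1.07 ± 0.467 CPM (SD, n = 4 each), and the values overlapped. The log2 fold change was 0.22 ± 0.37 (SE; edgeR exact test, adjusted p = 0.936). Limma-voom gave 0.02, with a 95% interval from -0.66 to 0.70.

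The other synthases read were close to absent in counts. AAEL002237 had 3, 1, 3 and 2 counts without heme and 1, 1, 0 and 0 with heme, or 9 against 2 in sum. AAEL002228 had 3 counts in 0 µM heme replicate 3, 1 count in 10 µM heme replicate 1 and 0 in the other libraries. Both stayed at or under 3 counts in every library and did not pass the filter of the main test, so no fold change is given. Without the filter, edgeR's exact test gave an unadjusted p of 0.0794 for AAEL002237 (adjusted p = 0.669) and 0.647 for AAEL002228. At this depth 3 counts stood for 0.0492 to 0.0663 CPM, and a change below that level was not detectable.

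Over the 4 synthases read, AAEL001194 held 98.9% to 99.8% of the counts in every library, with 33 to 78 counts on the other 3. Counts are not corrected for transcript length, so this is a share of counts and not of molecules. The CPM summed over these synthases was 138, 233, 306 and 210 without heme and 155, 216, 248 and 336 with heme. These sums followed FAS1 and overlapped between the groups.

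The lipophorin AAEL009955 was likewise at a low level. It had 6, 34, 16 and 21 counts at 0 µM and 10, 21, 19 and 13 counts at 10 µM heme. The means were 0.346 ± 0.190 CPM and 0.300 ± 0.0961 CPM (SD, n = 4 each), and the groups overlapped. The log2 fold change was -0.23 ± 0.44 (SE; edgeR exact test, adjusted p = 0.960), with a 95% interval of -0.99 to 0.59 by limma-voom. Hence 0 of the 3 members tested passed, where 4.63% of all genes tested did. None passed at an unadjusted p under 0.05 (0 of 3, against 13.3% of all genes). The quasi-likelihood test, limma-voom and DESeq2 also called 0 of 3, against 2.85%, 5.32% and 6.47% of all genes.

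Replicates of one treatment differed in FAS1 more than the treatments did. Its highest library was 2.23 times the lowest at 0 µM heme, and at 10 µM heme it ran from 153 to 335 CPM. The SD within treatment was 0.47 on the log2 scale, 0.48 without and 0.47 with heme. This was above that of 97.1% of the 280 tested genes whose mean log2 CPM lay within 0.5 of its own, where the median SD was 0.18.

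**Figure D2:**
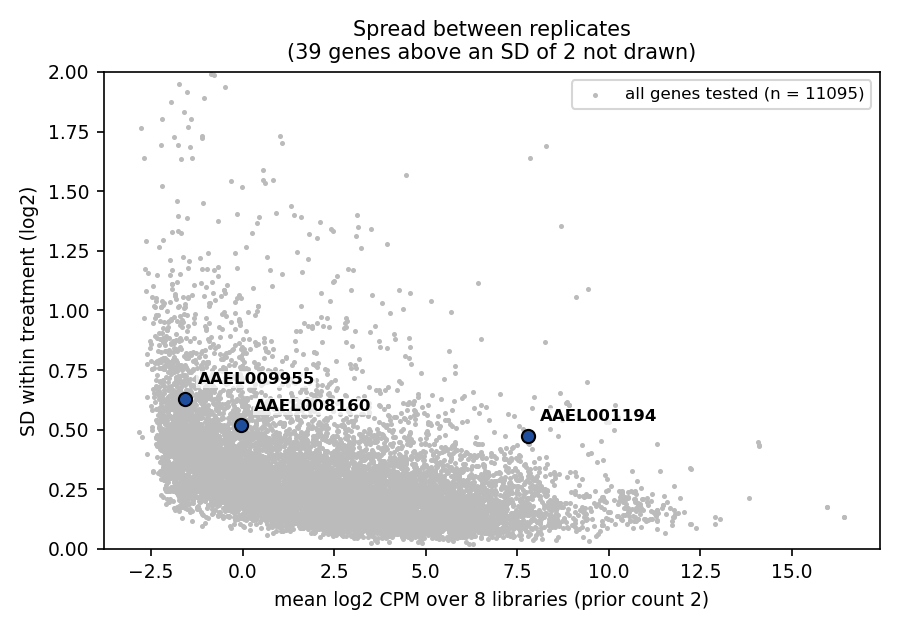
Spread between replicates against abundance: each point is a tested gene, with the mean log2 CPM over 8 libraries on the horizontal axis and the SD within treatment (log2) on the vertical axis, and 39 genes above an SD of 2 are not drawn. AAEL001194 lies at 0.47 among abundant genes whose median is 0.18.

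Among the low members, AAEL008160 had an SD of 0.52, above 83.0% of 1215 genes of like abundance. AAEL009955 had an SD of 0.63, above 78.6% of 1226 such genes.

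The scaled library total moved partly with FAS1. The libraries with the lowest FAS1 level, replicate 1 of each group, also had the lowest scaled totals, 45264146 and 45442814 counts, and 10 µM heme replicate 4 had both the highest level and the highest total, 60915617 counts. The unscaled total of 10 µM heme replicate 1, 53596619 counts, was not low. Replicate 3 at 10 µM heme had the 6th FAS1 level of 8 in rising order and the 3rd total. The part of scaling and depth in the spread of FAS1 was not tested. Without replicate 1 of both groups, left out after the values were seen, the log2 fold change of AAEL001194 was 0.09.

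Likeness among the members differed in sign from pair to pair. Over the 8 libraries, the Pearson correlation of log2 CPM was -0.52 between AAEL001194 and AAEL008160, 0.39 between AAEL001194 and AAEL009955, and -0.17 between AAEL008160 and AAEL009955. These are descriptions over libraries that share treatment, scaling and depth. The identifiers most like FAS1 by this measure, out of 4230 with a mean of at least 10 CPM, were AAEL017462 (r = 0.995) and AAEL012421 (r = 0.994). In all, 173 identifiers exceeded 0.9 and 116 lay under -0.9. For AAEL009955 the nearest of 4231 were AAEL023934 (r = 0.952) and AAEL011708 (r = 0.948), and 4 exceeded 0.9. AAEL009955 had only 6 to 34 counts, and at its mean count, counting error alone gives an SD of 0.34 on the log2 scale. Whether the highest of so many values over 8 libraries exceed chance was not tested.

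Around the members, 30 further genes of lipid metabolism were taken, 29 by annotation and AAEL009531 from the study's text, and 28 could be tested. With heme 3 of them fell and 0 rose in edgeR's exact test. That is 10.7%, against 4.63% of all genes tested, of which 2.42% were lower and 2.22% higher. The study had listed AAEL009531 on these same samples, so its call is not independent evidence, and without it 2 of 27, or 7.41%, were called. At an unadjusted p under 0.05, 5 of the 28 were lower and 0 higher, against 6.69% of all genes lower. Fold changes were below 0 for 21 of 28, against 46.6% of all genes, and their median was -0.17 against 0.02. These 28 include AAEL009531, and without it the median of the 27 was -0.14. With library totals in place of TMM, 25 of 28 were below 0, against 62.2% of all genes, and the medians were -0.25 and -0.07. In this bulk tissue, fewer cells of a type and less RNA per cell cannot be told apart.

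**Figure D3:**
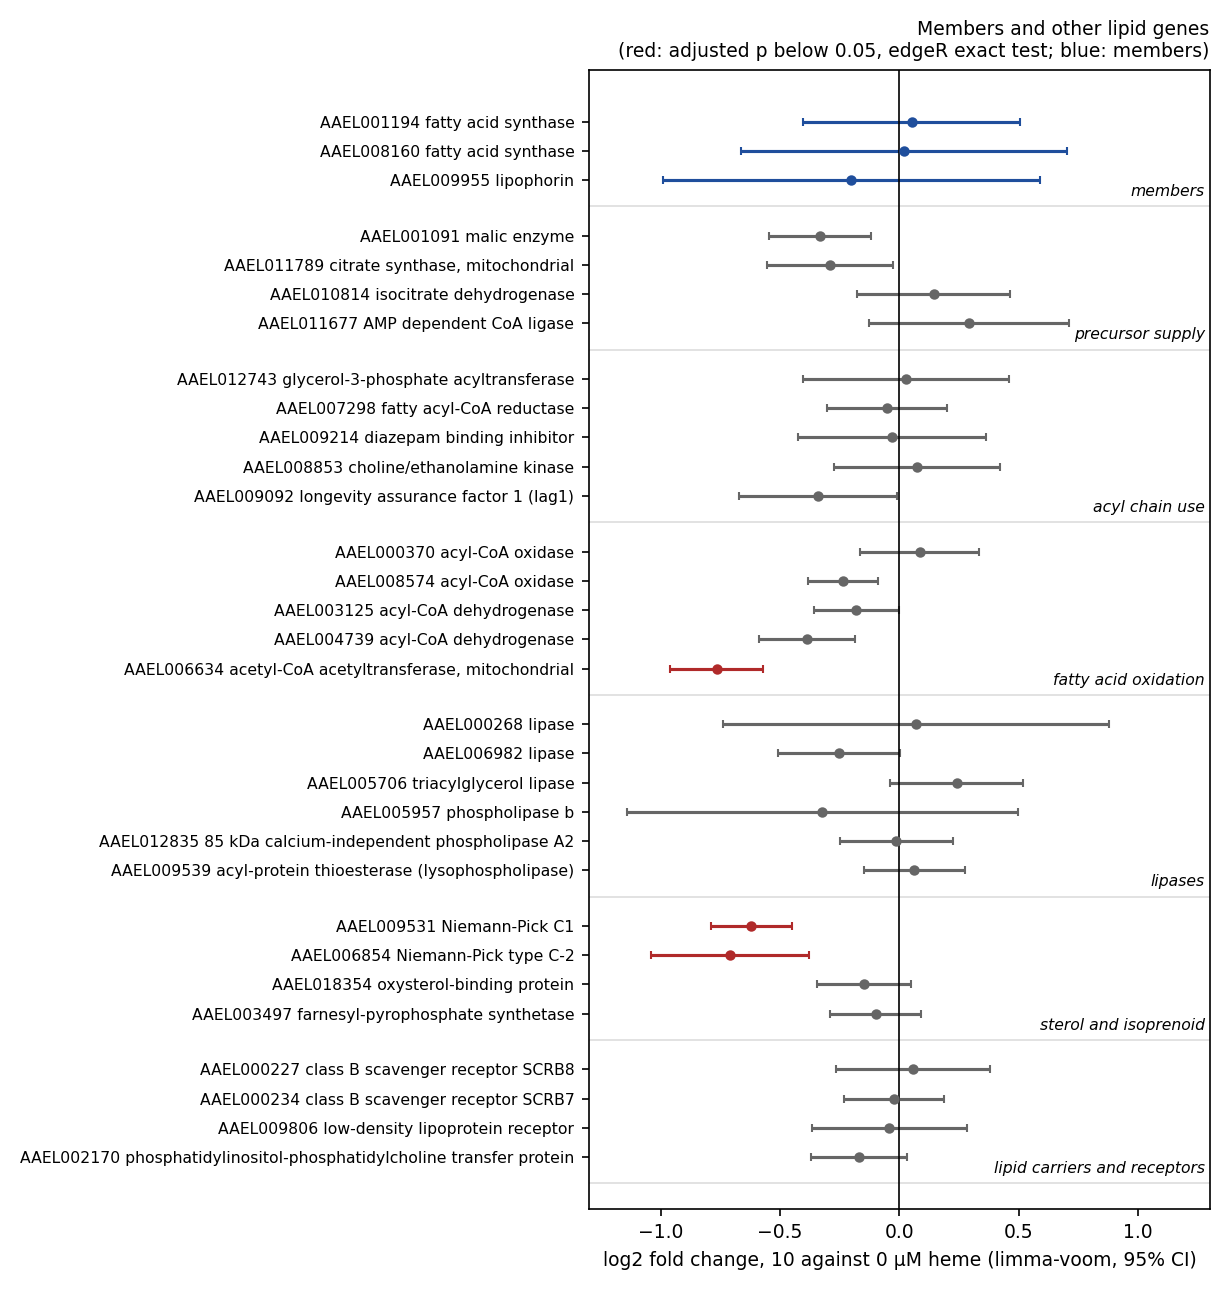
Log2 fold change of 10 µM against 0 µM heme for the 3 tested members (blue) and 28 lipid genes, with points and 95% intervals from limma-voom with quality weights. The 3 genes in red passed the exact test of edgeR at an adjusted p of 0.05, and all lie below 0, while the intervals of the members span 0.

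Of 4 genes listed for the supply of precursors to the synthases, 0 passed the test, where 4.63% of all genes tested did. The annotation was held only in part, so other enzymes of this supply may be missing from the list. The most abundant was citrate synthase AAEL011789, which makes the citrate that carries acetyl units, at 229 ± 32.4 CPM without and 182 ± 35.2 CPM with heme (SD, n = 4 each; log2 fold change -0.34 ± 0.17 SE, edgeR exact test adjusted p = 0.457). Malic enzyme AAEL001091, a source of NADPH, was singled out after its values were seen. It had 74.8, 55.4, 57.2 and 63.7 CPM without heme and 48.0, 44.7, 51.9 and 45.6 CPM with heme. The groups did not overlap, as for 10.2% of all genes, but the adjusted p of the exact test was 0.0645 (log2 fold change -0.40 ± 0.11 SE).

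Enzymes and carriers that use acyl chains also had none past the test (0 of 5, where 4.63% of all genes tested did). Their median was -0.19, against 0.02 over all genes. All 5 fold changes were below 0 in the exact test, as were 46.6% over all genes, but 2 were above 0 with limma-voom. The most abundant was AAEL009092, longevity assurance factor 1, a name given to ceramide synthases, at 621 ± 112 and 512 ± 113 CPM (SD, n = 4 each; edgeR exact test adjusted p = 0.758).

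Of the genes of fatty acid oxidation, 1 of 5 fell, where 2.42% of all genes tested were lower. Acetyl-CoA acetyltransferase AAEL006634, a mitochondrial thiolase that joins or splits acetyl units, had 26.2, 29.0, 29.1 and 30.1 CPM without heme and 17.4, 18.8, 15.7 and 18.3 CPM with it. The lowest library without heme lay above the highest with heme. Over all genes tested, the groups did not overlap for 10.2%, in either direction. Means were 28.6 ± 1.66 and 17.5 ± 1.38 CPM (SD, n = 4 each), a log2 fold change of -0.71 ± 0.07 (SE; edgeR exact test adjusted p = 7.39e-06), and the call held in all 18 alternatives. The most abundant of this group, acyl-CoA oxidase AAEL008574, went from 148 ± 5.15 to 129 ± 4.73 CPM without overlap (SD, n = 4 each; adjusted p = 0.475).

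Lipases, which release fatty acids from stored or membrane lipid, had 0 of 6 past the test, where 4.63% of all genes tested passed. Their median was -0.03, against 0.02 over all genes. The most abundant, the calcium-independent phospholipase A2 AAEL012835, had 71.7 ± 8.84 and 73.2 ± 10.5 CPM (SD, n = 4 each; edgeR exact test adjusted p = 0.996).

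The sterol carrier protein was not analysed here. Of 4 other genes of sterols and isoprenoids 2 fell, AAEL009531 and AAEL006854, where 2.42% of all genes tested were lower. The study had listed AAEL009531 on these same samples, so its call is not independent evidence. The study also reported lower RT-qPCR levels of AAEL009531 with heme. The call of AAEL006854 was lost in 10 of 18 alternatives. Both genes are named for Niemann-Pick type C proteins, which in mammals move cholesterol out of the lysosome. AAEL009531, Niemann-Pick C1, had 67.7, 85.4, 82.9 and 85.01 CPM without heme and 50.8, 53.8, 55.4 and 54.0 CPM with it (log2 fold change -0.59 ± 0.08 SE, edgeR exact test adjusted p = 2.12e-04). AAEL006854, Niemann-Pick type C-2, had 3.51, 2.69, 2.41 and 2.59 CPM without heme and 2.33, 1.53, 1.55 and 1.48 CPM with it. For both genes the groups did not overlap, as for 10.2% of all genes tested. This separation comes from the same values as the test and adds no support to it.

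The fold change of AAEL006854 was -0.70 ± 0.19 (SE), at an adjusted p of 0.0473 in the exact test. The call was lost when any library other than 10 µM heme replicate 1 was left out (adjusted p 0.0557 to 0.224), and the quasi-likelihood test gave 0.0993. AAEL018354, an oxysterol-binding protein and the most abundant of the 4, had 119 ± 12.5 and 110 ± 11.7 CPM (SD, n = 4 each; adjusted p = 0.893 in edgeR's exact test).

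**Figure D4:**
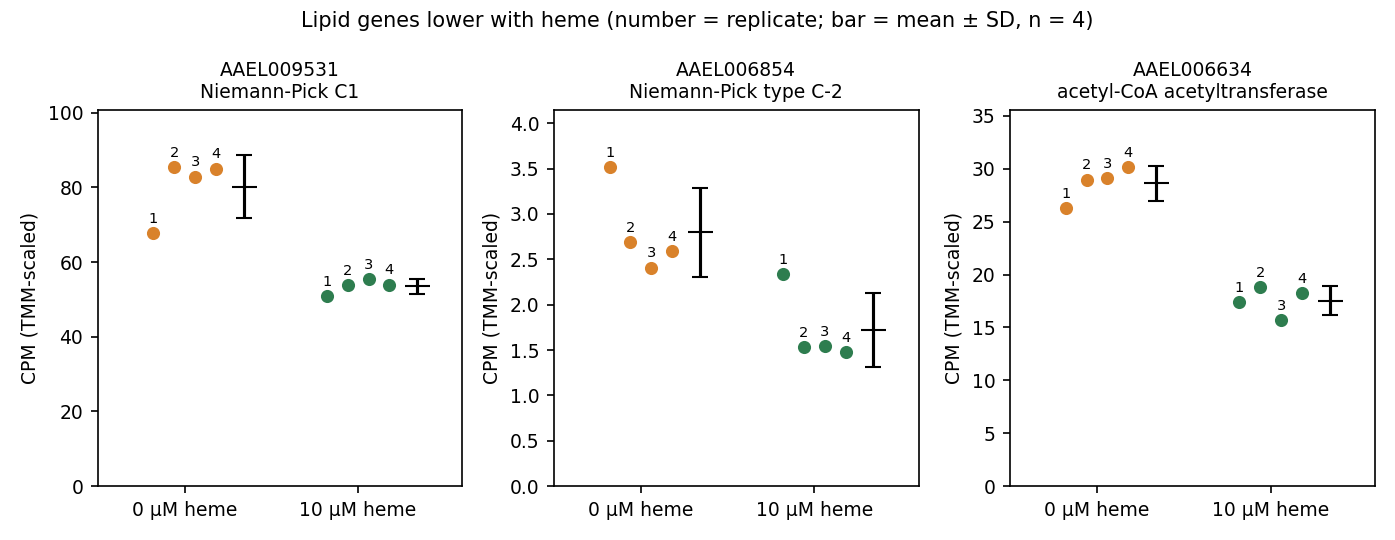
Level in each library of the lipid genes that passed the exact test, in CPM scaled by TMM with axes from 0, by treatment. Points are the 4 replicates with their numbers, and bars give the mean and SD. In each gene every 10 µM library lies below every 0 µM library. Groups did not overlap, in either direction, for 10.2% of all genes tested.

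Among lipid carriers and receptors 0 of 4 passed, where 4.63% of all genes tested did, with a median of 0.00 against 0.02 over all genes. The most abundant was the phosphatidylinositol transfer protein AAEL002170, at 114 ± 11.6 and 97.7 ± 6.40 CPM (SD, n = 4 each; adjusted p = 0.485 in edgeR's exact test). The receptors in this group, scavenger receptors of class B and a low-density lipoprotein receptor, had fold changes from -0.03 to 0.16.

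Tissue genes were read beside these results, since a dissected midgut carries muscle, basal lamina, nerve and endocrine cells. The 6 genes read stood for these tissues and, in 2 cases, for midgut digestion. Of the 6, 2 fell and 0 rose, where 2.42% of all genes tested were lower and 2.22% higher. Of the 2 that fell, 1 was of basal lamina and 1 of midgut digestion. Their summed level was 198 to 241 CPM at 0 µM and 177 to 203 CPM at 10 µM heme, and none was at 0 in any library. Laminin gamma 1 AAEL005187 went from 32.2 ± 3.05 to 21.3 ± 2.87 CPM (SD, n = 4 each; edgeR exact test adjusted p = 0.00269), and the serine protease AAEL009853 from 14.0 ± 1.77 to 8.82 ± 0.392 CPM (adjusted p = 5.40e-04). Paramyosin AAEL000485, a muscle protein, was at 120 and 112 CPM (adjusted p = 0.907), and laminin beta-2 AAEL003658, the synaptosomal associated protein AAEL004559 of nerve and endocrine cells and trypsin AAEL002273, the last at 9 to 24 counts, also did not pass (adjusted p = 0.925, 0.902 and 0.745). The part of these tissues in the fall of AAEL006634, AAEL009531 and AAEL006854 was not tested. The lists held no fat body or hemocyte marker, and the lipophorin AAEL009955, which insects make mainly in the fat body, was at 6 to 34 counts.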

How the data were processed

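Per the study's methods, alignment to AaegL5 was done in HISAT2 2.1.0, removal of alignments with mapping quality under 10 in SAMtools, counting in bedtools 2.19.1 and testing in edgeR. The authors deposited raw counts per identifier for each of the 8 libraries, with no normalization. The quality filter removes many reads that fit near-identical copies equally well. How strand, spliced reads and reads over several transcripts were counted is, in the sources used here, not given. Groups and replicate numbers came from the labels.

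The exact test was run on counts in edgeR 4.0.16 (R 4.3.3, TMM, filterByExpr, Benjamini-Hochberg over 11095 genes, two-sided, threshold 0.05). Intervals came from limma 3.58.1 voom with quality weights. The SE is that of the difference of group means of log2 CPM (prior count 2). Alternatives were edgeR's quasi-likelihood test with and without a replicate block, DESeq2 1.42.0, other scalings and filters, and leaving out libraries. P-values judge the difference between groups against the spread between these samples, as modelled over the genes tested. Limits from counts cover counting error only.

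The members and lists were chosen with earlier results of these data known. The lipid and tissue lists came from the study's gene annotation, held here only in part, and its text (AAEL009531 and AAEL009853). All members, called lipid genes, the most abundant gene of each lipid group, the 2 identifiers most like AAEL001194 and AAEL009955, and the tissue genes were named. AAEL001091 and AAEL004739 were named after their values were seen. No identifier matched the RefSeq table of assembly AaegL5.0 (0 matches), so no position, length or sequence is given.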

Additional observations from a re-analysis of the deposited data

Results flagged for a closer look

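In 5 of the 40 groups of 4 libraries examined, a library lay far from the other 3 by Dixon's criterion at the 95% level, where chance gives about 2. The synthase AAEL008160 had 0.588 CPM in 0 µM heme replicate 3, and 1.02 CPM in each of the others. AAEL009531, Niemann-Pick C1, had 67.7 CPM in 0 µM heme replicate 1, and 82.9 to 85.4 CPM in the others. AAEL006854, Niemann-Pick type C-2, had 2.33 CPM in 10 µM heme replicate 1, and 1.48 to 1.55 CPM in the others. Laminin gamma 1 AAEL005187 had 27.6 CPM in 0 µM heme replicate 1, and 33.6 to 33.98 CPM in the others. The serine protease AAEL009853 had 11.4 CPM in 0 µM heme replicate 2, and 14.7 to 15.1 CPM in the others.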

How the results depend on the processing

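No tested member was called under any of the 18 alternatives, and AAEL009955 was not tested under the CPM filter. Leaving out a library moved the log2 fold change of AAEL001194 from -0.10 to 0.30, of AAEL008160 from -0.08 to 0.42 and of AAEL009955 from -0.48 to 0.15. The sign turned for AAEL001194 without 0 µM heme replicate 1 (-0.06), without 10 µM heme replicate 4 (-0.10) and without the pair of 0 µM heme replicate 1 and 10 µM heme replicate 2 (-0.025). It turned for AAEL008160 without 10 µM heme replicate 1 (-0.083) and without replicate 1 of both groups (-0.028), the last chosen after seeing the data, and for AAEL009955 without 0 µM heme replicate 2 (0.15). The study's scaling plot placed 0 µM heme replicate 1 and 10 µM heme replicate 2 apart from their groups. Without this pair, the edgeR exact test gave an adjusted p of 0.349 for AAEL006854, 0.369 for AAEL004739 and 0.375 for AAEL001091. AAEL006634 and AAEL009531 kept their calls (6.07e-05 and 5.44e-05). Over all genes, 514 were called, against 316 with the quasi-likelihood test and 333 to 549 when a library was left out (333 without 10 µM heme replicate 3). Scaling by library totals gave 142 higher and 300 lower in place of 246 and 268. Of the lipid genes 3 were called, and 2 to 4 when a library was left out. DESeq2 called 6 of them and 716 of all genes, library totals 5 and 442, and the CPM filter 5 and 495. The main test had no replicate block because the study's methods use none. Same-numbered samples deviated together in replicate 1 (correlation 0.52) and little in replicates 2 to 4 (0.07, 0.06 and 0.16). These values do not settle whether the numbers mark pairs. With the replicate block, 725 genes and 5 lipid genes were called, and AAEL001194 had an adjusted p of 0.741. The cause of these shifts was not tested. Depth limits AAEL002237 and AAEL002228, at 0 to 3 counts.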

Other observations

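Acyl-CoA dehydrogenase AAEL004739, of fatty acid oxidation, had 35.7 ± 3.01 CPM without and 27.3 ± 2.07 CPM with heme (SD, n = 4 each). Its groups did not overlap, as for 10.2% of all genes tested. The edgeR exact test gave an adjusted p of 0.0593, and 7 of 18 alternatives called it. AAEL001091, malic enzyme, was called in 4 of 18.

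Across the lipid list, the correlation of log2 CPM with AAEL001194 over the 8 libraries ran from -0.88 for isocitrate dehydrogenase AAEL010814 to 0.81 for the phospholipase A2 AAEL012835. It was -0.77 for citrate synthase AAEL011789 and 0.78 for the oxysterol-binding protein AAEL018354. These are descriptions over libraries that share treatment, scaling and depth.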
